A study of Mus musculus with 6 samples.

Results

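Direct glucocorticoid receptor response genes were followed in primary mouse hepatocytes that received TNF, a cytokine of inflammation, on top of a glucocorticoid. The set was 10 genes, Fkbp5, Tsc22d3, Sgk1, Klf9, Zbtb16, Dusp1, Errfi1, Ddit4, Hif3a and Lpin1, picked by symbol as known early targets of the receptor. This set and the gene lists below were chosen with earlier results of these data known. All 10 were found among the 19764 genes measured, and all 10 had enough reads to be tested. The cells were hepatocytes of Bl6/N mice, profiled by sequencing of polyA RNA in 6 libraries. In both groups the cells were plated with corticosterone (the main glucocorticoid of mice, a ligand of the glucocorticoid receptor) and held for 6 h at 0.1 µM of it, followed by 16 h in low-serum starvation medium with 5 mM glucose. Control (3 libraries) then received 1 µM corticosterone, 10 µM WY-14643 (a ligand of the fatty acid receptor PPARα) and vehicle for 8 h, and TNF (3 libraries) received the same ligands with 1 ng/ml TNF. No group without corticosterone was analysed here, so the values show levels under the hormone and not its induction. The sources used here give neither age nor sex of the mice, nor say that replicates were separate animals or cultures, so p-values measure only the spread between these libraries, which may be technical.

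The glucocorticoid receptor, encoded by Nr3c1, waits in the cytoplasm in a chaperone complex until it binds hormone. It then enters the nucleus and binds glucocorticoid response elements, palindromes of a hexamer, near its target genes. Among its most direct targets are genes that hold the hormone signal or inflammatory signalling in check, and in liver it also drives fasting metabolism. TNF acts through the transcription factor NF-κB, and the receptor and NF-κB are known to oppose each other at many genes.

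Sequences before the transcription starts were searched because the members share a regulator. RefSeq promoter windows (GRCm38.p6, 250 bases before to 50 after a start) matched 9 members by symbol with 17 windows, 6 of them for Sgk1; Zbtb16 was not matched. The response element palindrome, AGAACA and TGTTCT with any 3 bases between them, was found in 3 of 32851 windows of all genes (0.00913%), and 1 of the 3 belonged to Sgk1. A looser palindrome, GNACA and TGTNC with any 3 bases between them, was found in 156 windows (0.475%), among the members again in Sgk1, where it overlaps the first. Its hexamer alone, AGAACA on either strand, was found in 6233 windows (19.0%) and in 5 of the 17 member windows, which belonged to Sgk1, Tsc22d3 and Lpin1. The cyclic AMP response element TGACGTCA was found in 588 windows (1.79%) and in 2 member windows, those of Errfi1 and Dusp1. The κB motif, GGG and TTTCC with any 2 bases between them, was found in 535 windows (1.63%) and in 0 of the 17. All motifs were searched on both strands. A match describes letters in these windows and is not a measured binding site. The Sgk1 palindrome, the hexamers of Tsc22d3 and Lpin1 and both cyclic AMP response elements are shown 5′ to 3′ on the strand of the gene, with that match in capitals, because they place the motifs relative to a start. The Sgk1 stretch holds a further hexamer left in lower case, and single hexamers in the other Sgk1 windows are not shown. The cyclic AMP response element lies 51 to 44 bases before a start in Errfi1 and 143 to 136 bases before the start in Dusp1.
Sgk1 palindrome, 189 to 175 bases before a start inside the counted span, chr10:21993640-21993815, + strand: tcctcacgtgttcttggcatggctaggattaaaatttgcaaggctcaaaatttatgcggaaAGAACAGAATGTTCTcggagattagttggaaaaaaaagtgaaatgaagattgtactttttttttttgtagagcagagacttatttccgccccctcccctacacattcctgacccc
Tsc22d3 hexamer, 185 to 180 bases before the start, chrX:140600677-140600732, - strand: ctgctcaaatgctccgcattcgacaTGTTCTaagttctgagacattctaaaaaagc
Lpin1 hexamer, 163 to 158 bases before a start outside the counted span, chr12:16611099-16611154, - strand: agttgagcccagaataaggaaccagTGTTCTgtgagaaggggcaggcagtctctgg
Errfi1 cyclic AMP response element, chr4:150854994-150855051, + strand: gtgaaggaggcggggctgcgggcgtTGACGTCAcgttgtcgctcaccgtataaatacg
Dusp1 cyclic AMP response element, chr17:26508583-26508640, - strand: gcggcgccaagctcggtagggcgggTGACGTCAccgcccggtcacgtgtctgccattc

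Library totals lay between 17612060 and 25114289 reads. Levels are CPM, reads relative to the size of the library as scaled by the authors, and changes are differences of log2(CPM + 1), TNF minus Control, which understate the change of genes at low levels. A limma fit without pairing ("unpaired") and one with the replicate number as a block ("blocked") were run over 12276 genes, and "fell" or "rose" is used where the blocked adjusted p was under 0.05. The block was used because same-numbered libraries deviated together. Hepatocyte markers were abundant (Alb, the albumin gene, averaged 34932 CPM in Control), and 4 of 7 tested ones fell, where 11.2% of all tested genes fell. Among the 4 was Hnf4a, the gene of a hepatocyte identity factor, by 0.43. In the unpaired fit 0 of the 7 passed, and their median log2 change was -0.11. Among markers of other liver cells Cd68 was at 179.7 and 178.8 CPM in Control and TNF, while the Kupffer cell gene Clec4f had 1 read over the 6 libraries. Of 8 macrophage markers only 1 had enough reads to be tested. Their sum, mostly Cd68, lay at 144 to 231 CPM in Control and 146 to 233 in TNF. Summed endothelial markers lay at 79.9 to 151 CPM in Control and 76.1 to 141 in TNF, summed stellate markers at 18.1 to 68.2 and 19.7 to 45.1, and summed cholangiocyte markers at 25.5 to 35.2 and 32.5 to 54.5. Stab2 and Reln fell and Sox9 rose among these. The part of other cells in the members' changes was not tested. Of 11 tested NF-κB response genes 11 rose, where 9.39% of all tested genes rose. They were led by the chemokine gene Ccl2 (3.83), the kinase gene Ikbke (2.25), the chemokine gene Cxcl1 (2.14) and the adhesion molecule gene Icam1 (1.94).

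Most of the direct response genes were lower with TNF, by modest amounts. In the blocked fit 7 of the 10 fell and none rose, where 11.2% of all tested genes fell and 9.39% rose (20.6% in all). Because the members were chosen with earlier results of these data known, the shares of all genes are context and no test of the set. Blocked limma-voom called the same 7, where it had 11.1% of all genes lower and 9.42% higher (20.5% in all). In the unpaired fit 0 of the 10 passed, where 0.432% of all genes passed, 0.0733% lower and 0.358% higher. At an unadjusted p under 0.05 the unpaired limma fit had 5 members lower, against 4.32% of all genes, and unpaired limma-voom called 0 with the same 5 lower at an unadjusted p under 0.05. The median log2 change of the 10 was -0.33, against -0.01 for all tested genes. Groups did not overlap for 4 members, each lower with TNF, where 6.66% of all genes were apart with TNF lower and 6.6% with TNF higher, and 8 members were lower in every same-numbered pair (27.7% of all genes). An exact permutation test on 1 gene cannot go below 0.10 with 3 against 3 libraries, nor below 0.25 with 3 pairs.

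**Figure D1:**
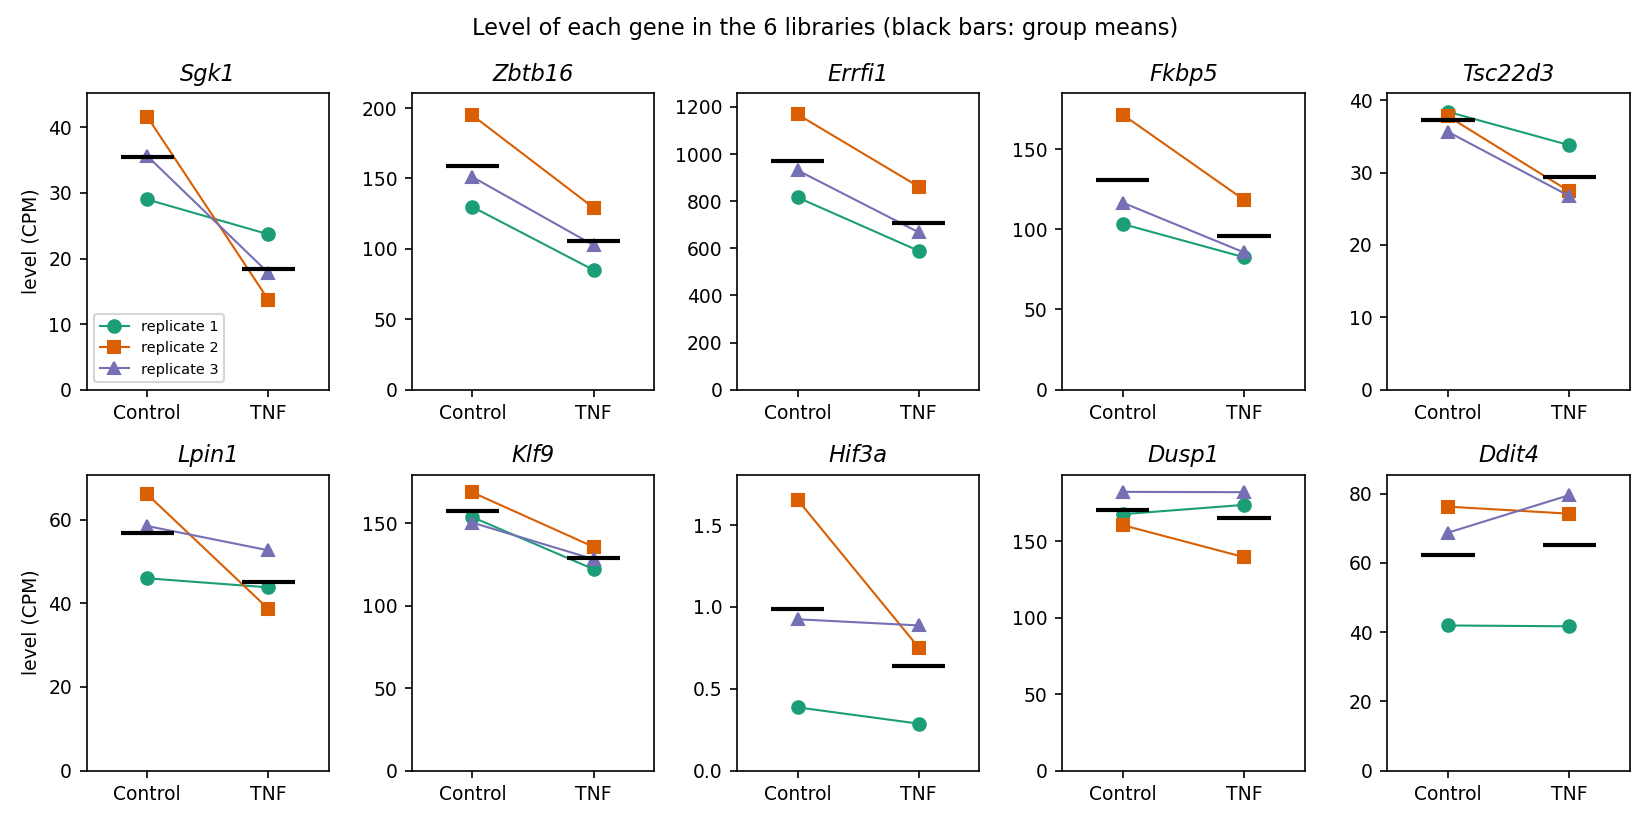
Level of each gene in CPM (vertical axes, linear from 0) in the 3 Control and 3 TNF libraries; lines join libraries with the same replicate number and black bars are group means. Sgk1, Zbtb16, Tsc22d3 and Klf9 are the genes whose TNF libraries all lie below all Control libraries.

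Fkbp5 encodes FKBP51, a co-chaperone that lowers the receptor's affinity for hormone and so forms a feedback loop. It lies at chr17:28398753-28486149 (mm10, from base 1). Its level was 103, 171 and 117 CPM in Control 1, 2 and 3 and 82.6, 118 and 85.6 CPM in TNF 1, 2 and 3. The groups overlapped, since Control 1 lay below TNF 2, yet each TNF library was below the Control library of its own number. Fkbp5 fell by 0.43 on the log2 scale, to 73.2% of the Control mean, with an adjusted p of 6.12e-06 blocked and 0.662 unpaired (limma). The spread between replicate numbers, 0.73 on the log2 scale over the Control libraries, was larger than the change. Without Control 2 the unpaired change of Fkbp5 was -0.22, and with the block but without replicate 2 it was -0.38. In the other direction, the unpaired change was -0.58 without Control 1 and -0.59 without TNF 2. Annotated antisense transcripts cover 10246 bases of its span, and whether counting used the strand is not given in the sources used here.

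Tsc22d3 and Dusp1 encode anti-inflammatory proteins, and they differed in outcome. Tsc22d3 (chrX:140539529-140600522) encodes GILZ, a leucine zipper protein that binds and restrains NF-κB and AP-1. It was at 38.4, 37.8 and 35.6 CPM in Control and 33.8, 27.4 and 26.8 CPM in TNF. The groups did not overlap, and TNF 1 came closest to Control. Tsc22d3 fell by 0.34, with an adjusted p of 0.00139 blocked and 0.352 unpaired (limma).

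Dusp1 (chr17:26505591-26508472) encodes MKP-1, a phosphatase that switches off the stress kinases p38 and JNK. Its level was 168, 160.4 and 182 CPM in Control and 174, 139.5 and 182 CPM in TNF. TNF 2 was the lowest library, and the other five lay between 160.4 and 182 CPM. Its log2 change was -0.05, with a blocked 95% interval of -0.14 to 0.04 and an unpaired one of -0.31 to 0.21. The blocked adjusted p was 0.478 in limma. The pairs differed in sign, at 0.05, -0.20 and -0.0016.

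Sgk1, a serine/threonine kinase related to AKT that regulates ion channels and transporters, had the strongest fall of the 10. It lies at chr10:21882184-21999902, and the palindrome shown above lies inside that span. Its level was 29.0, 41.6 and 35.6 CPM in Control and 23.7, 13.7 and 17.8 CPM in TNF. Every TNF library was below every Control library, and replicate 2 was the highest in Control but the lowest in TNF. Sgk1 fell by 0.93 (SE 0.21 unpaired), to 51.9% of the Control mean, and 24 of 12276 genes had a lower log2 change. Its adjusted p was 0.000544 blocked and 0.159 unpaired (limma). The pairs ranged from -0.28 in replicate 1 to -1.54 in replicate 2, with -0.96 in replicate 3. That spread gives an SE of 0.363 from its own 3 pairs, against 0.153 in the blocked fit, which borrows variance from other genes.

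Errfi1 (chr4:150855091-150868880) encodes MIG6, an inhibitor of EGF receptor family kinases, and was the most abundant member in CPM. Its level was 816, 1168 and 931 CPM in Control and 589, 861 and 668 CPM in TNF. The groups overlapped through TNF 2, which lay above Control 1. Within pairs the change was nearly constant, at -0.47, -0.44 and -0.48, although the Control libraries spanned 0.52 on the log2 scale. Errfi1 fell by 0.46, with an adjusted p of 1.76e-07 blocked and 0.509 unpaired (limma).

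Ddit4 (chr10:59949675-59951770) encodes REDD1, which restrains the growth kinase mTORC1 through the TSC1-TSC2 complex. It was at 41.9, 76.2 and 68.7 CPM in Control and 41.7, 74.2 and 79.6 CPM in TNF. Replicate 1 was low in both groups, and TNF 3 was the highest library. The log2 change was 0.05, with a blocked 95% interval of -0.06 to 0.17 and a blocked adjusted p of 0.524 in limma. The unpaired interval, -0.64 to 0.74, was wider.

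Klf9, Zbtb16 and Hif3a encode transcription factors. Zbtb16 (chr9:48654297-48835945) encodes the zinc finger repressor PLZF. Its level was 129.8, 195 and 151 CPM in Control and 84.9, 129 and 103 CPM in TNF. The highest TNF library lay just below the lowest Control library. Zbtb16 fell by 0.58, with an adjusted p of 4.44e-08 blocked and 0.379 unpaired (limma). Its pairs agreed closely, at -0.61, -0.59 and -0.55, an SD of 0.0264 over 3 pairs.

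Klf9 (chr19:23141226-23166911) encodes a Krüppel-like zinc finger factor induced by glucocorticoids in many tissues. It was at 154, 169 and 150.5 CPM in Control and 122, 136 and 128 CPM in TNF. The groups did not overlap and were tight. Klf9 fell by 0.29, to 81.7% of the Control mean, with an adjusted p of 4.15e-05 blocked and 0.217 unpaired (limma). Although small, this change was larger than the range of the Control libraries, 0.16 on the log2 scale.

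Hif3a (chr7:17030993-17062427) encodes a hypoxia-inducible factor subunit with isoforms that inhibit the others, and was near the lower limit of measurement. Its reads numbered 7, 40 and 19 in Control against 6, 14 and 18 in TNF, or 0.387, 1.65 and 0.925 CPM against 0.287, 0.751 and 0.887 CPM. The groups overlapped, and Control 2 stood highest. Its log2 change was -0.25 with a blocked 95% interval of -0.58 to 0.09, and the blocked adjusted p was 0.305 in limma. On scales that shrink low genes less the change was larger (-0.48 with a pseudocount of 0.1 and -0.59 in blocked limma-voom), still past no threshold. Without Control 2 the unpaired change was -0.0119, and without TNF 1 it was -0.0793. Without Control 1 it was -0.48, without TNF 3 -0.36, without TNF 2 -0.30 and without Control 3 -0.24.

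Lpin1 (chr12:16535669-16589770), the metabolic member, encodes a phosphatidate phosphatase of triglyceride synthesis that also acts with PGC-1α and PPARα in the nucleus. Its level was 46.0, 66.0 and 58.5 CPM in Control and 43.8, 38.6 and 52.6 CPM in TNF. The groups overlapped, and the drop was concentrated in replicate 2. The pairs changed by -0.07, -0.76 and -0.15. Lpin1 fell by 0.32 with a blocked adjusted p of 0.0264 (0.663 unpaired, limma). Without Control 2 alone the unpaired change was -0.21, and without Control 1 alone it was -0.47. With the block but without replicate 2 its log2 change was -0.11 and the adjusted p 0.274, so the call rests on that pair.

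**Figure D2:**
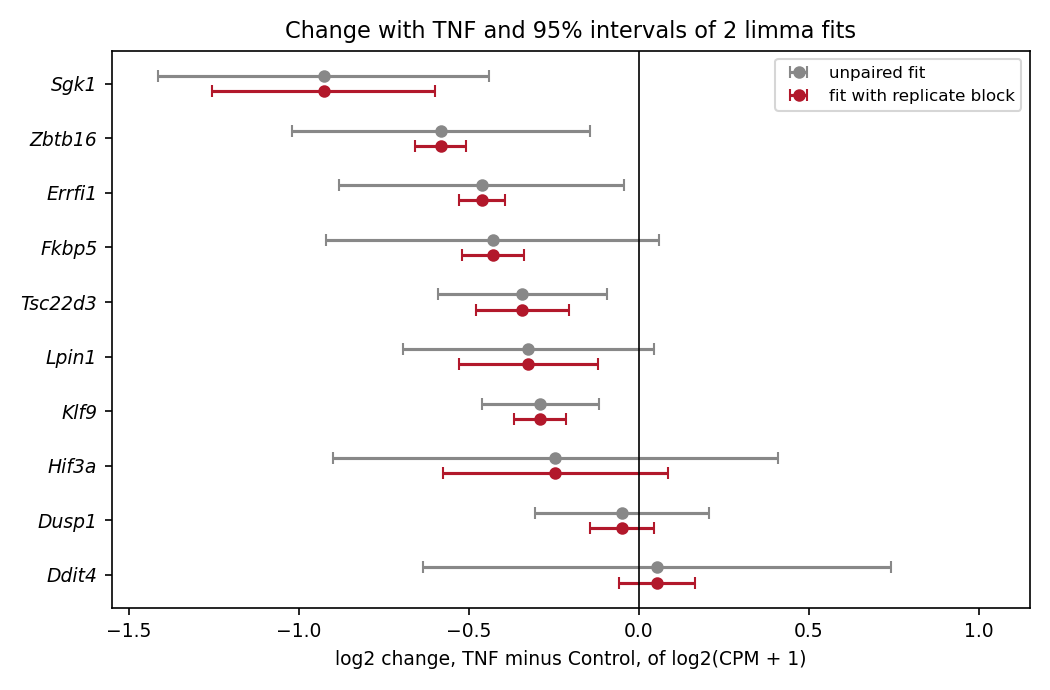
Log2 change of each gene, TNF minus Control (horizontal axis, log2(CPM + 1) scale), with 95% intervals of the unpaired (grey) and blocked (red) limma fits; points are the fitted changes. The blocked intervals of 7 genes lie below 0, while those of Hif3a, Dusp1 and Ddit4 include it.

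The members were mostly lower in each of the 3 pairs. In replicate 1, 9 of the 10 members were below 0, in replicate 2 all 10, and in replicate 3 again 9, where 53.3%, 54.3% and 50.1% of all tested genes were. The members' median was -0.23, -0.49 and -0.31 in the 3 pairs, against -0.013, -0.018 and -0.0004 for all genes. Errfi1, Zbtb16 and Klf9 had the most even changes, and Sgk1, Lpin1 and Hif3a the most uneven, each strongest in replicate 2. Within Control, 8 of 10 members were highest in replicate 2, as were 38.3% of all tested genes. Within TNF 4 of 10 were, but the share of all genes there was not counted, so the groups are not compared in this. What differed between the replicate numbers is not stated in the sources used here.

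**Figure D3:**
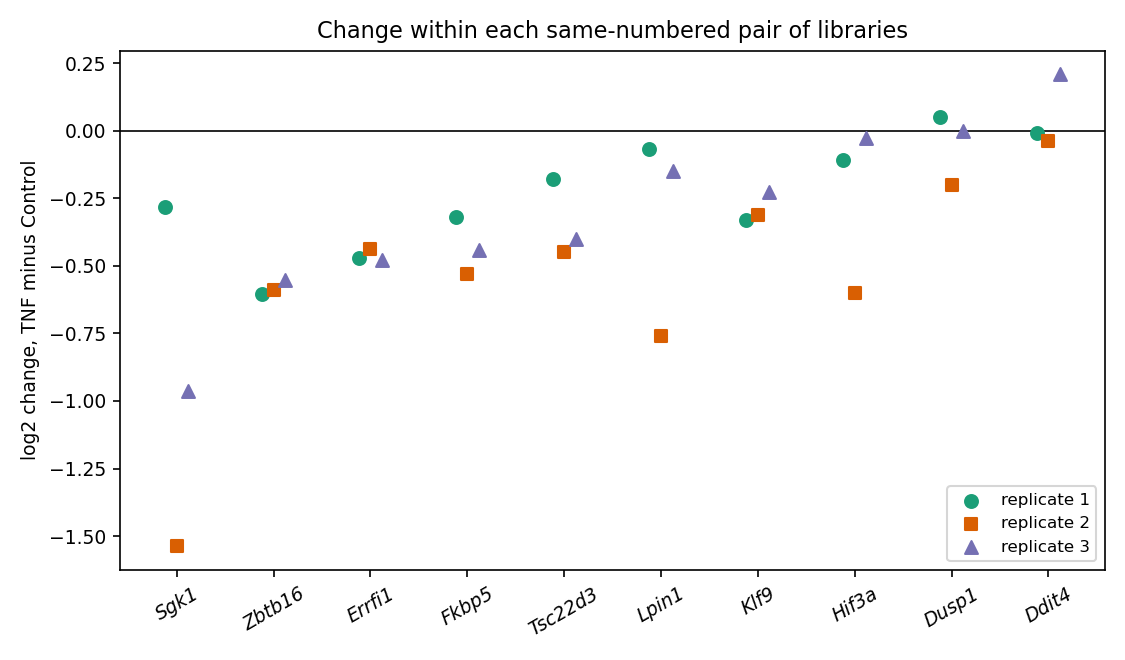
Log2 change within each same-numbered pair of libraries (vertical axis) for the 10 genes, ordered by mean change; colour and shape mark the replicate number. The points of Zbtb16 and Errfi1 nearly coincide, while those of Sgk1 run from -0.28 to -1.54.

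The members differ in gene span, from 2.10 kb for Ddit4 to 182 kb for Zbtb16, and the 2 shortest, Dusp1 and Ddit4, did not pass. Hif3a (31.4 kb) did not pass either, though it is longer than Errfi1 (13.8 kb) and Klf9 (25.7 kb), which fell. Reads were counted over whole gene spans, introns included. Annotated exons (GENCODE) make up 2.82% of the span of Zbtb16, 4.16% of Sgk1, 7.34% of Fkbp5 and 24.4% of Errfi1, but 91.9% of Dusp1 and 80.4% of Ddit4. Intronic and exonic reads are not separate in these values, so their shares in the changes were not tested. Over all tested genes, 9.70% of those under 5 kb fell in the blocked fit, 10.4% of those of 5 to 20 kb, 12.1% of those of 20 to 80 kb and 11.9% of those of 80 kb or more. The shares that rose in the same classes were 7.35%, 8.24%, 9.89% and 12.0%, so calls in both directions were more frequent among longer genes. Per kb of counted span the levels were highest for Errfi1 (60.8 CPM per kb), Dusp1 (58.1) and Ddit4 (30.4), followed by Klf9 (5.60). Fkbp5 (1.29), Lpin1 (0.941), Zbtb16 (0.727), Tsc22d3 (0.546), Sgk1 (0.229) and Hif3a (0.0259) were lower, and a span made mostly of introns lowers this measure by construction.

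**Figure D4:**
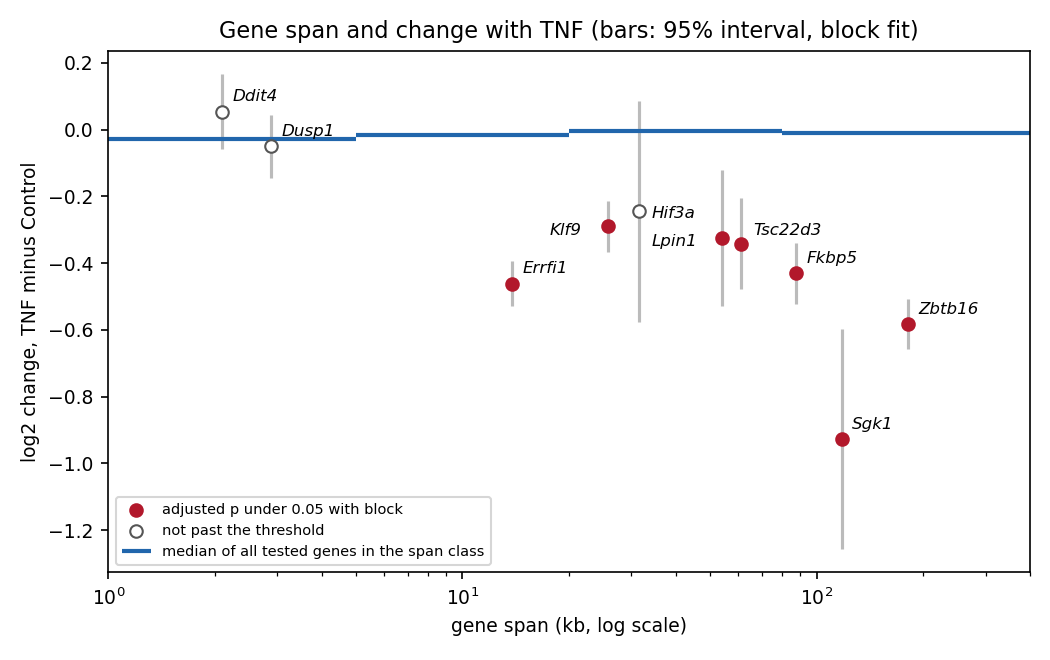
Log2 change with TNF (vertical axis; bars, blocked 95% interval) against gene span in kb (horizontal log axis) for the 10 genes; blue lines are medians of all tested genes in 4 span classes. Dusp1 and Ddit4, under 5 kb, lie near 0, and the members above 5 kb lie lower, while the medians of all genes stay near 0. The bar of Hif3a, above 5 kb, includes 0.

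The authors' deposited table gave the same directions for the members. Its log2 fold change was -0.96 for Sgk1, -0.59 for Zbtb16, -0.46 for Errfi1 and -0.44 for Fkbp5 in the authors' deposited table. Its adjusted p was 0.0499 for Lpin1, and Hif3a had a log2 fold change of -0.62 with an adjusted p of 0.157 in the authors' deposited table.

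Other genes that glucocorticoids induce formed a list of 30 rich in liver enzymes. Of 29 tested, 12 fell, 2 rose and 15 did not pass in the blocked fit, with a median of -0.13, against 11.2% lower and 9.39% higher among all tested genes. In the unpaired limma fit 0 passed, where 0.432% of all tested genes passed, and unpaired limma-voom called 0. At an unadjusted p under 0.05 in the unpaired limma fit 6 were lower, where 4.32% of all tested genes were, and 0 were higher. The share of all genes higher at that p was not counted. The strongest fall was that of Igfbp1 (-1.30), which binds insulin-like growth factors, from 588 ± 155 to 242 ± 75.4 CPM (SD, n = 3). G6pc, the last enzyme of glucose release, fell by 1.01, from 24.5 ± 4.07 to 11.9 ± 3.68 CPM. Tdo2, which degrades tryptophan, fell by 0.76, and Klf15, a fasting transcription factor, by 0.61. Cdo1, the cysteine dioxygenase, rose by 0.42 and the metallothionein Mt2 by 0.14. Per1, a clock gene and a direct receptor target, was named after its values were seen. It was at 75.8 ± 12.6 and 70.2 ± 16.7 CPM (SD, n = 3), with a log2 change of -0.13 and a blocked adjusted p of 0.0846 in limma.

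The receptor and its machinery were counted in the same way. Of 20 tested genes 1 fell and 0 rose in the blocked limma fit, where 11.2% of all tested genes fell and 9.39% rose. At a blocked unadjusted p under 0.05 (limma), 5 were lower and 3 higher. The share of all genes at that p was not counted. Even at the stricter adjusted threshold 20.6% of all tested genes passed, so no result about this list is drawn from these counts. Blocked limma-voom called 1 lower and 1 higher, where it had 11.1% of all genes lower and 9.42% higher. Nr3c1 itself was at 104 ± 13.6 and 99.1 ± 14.1 CPM (SD, n = 3), a log2 change of -0.07 with a blocked 95% interval of -0.15 to 0.01. The gene that fell was Fkbp4 (-0.12), the co-chaperone FKBP52, a close relative of FKBP51.

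Of 31 tested family relatives of the members 8 fell and 3 rose, with a median of -0.01, where 11.2% of all tested genes fell and 9.39% rose. The share that rose was near that of all genes. In the unpaired limma fit 0 passed, where 0.432% of all tested genes passed. At an unadjusted p under 0.05 in that fit 2 were lower, where 4.32% of all tested genes were, and 0 were higher. The share of all genes higher at that p was not counted. Klf15 (-0.61), the hypoxia factor gene Epas1 (-0.49), Klf12 (-0.35) and Lpin2 (-0.20) fell most. Klf10 (0.42), Ddit4l (0.30) and Tsc22d1 (0.20) rose. Lpin2, at 1165 ± 171 CPM in Control (SD, n = 3), had far more reads than Lpin1.

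Of 24 tested partners and targets of the members' proteins 5 fell and 4 rose, with a median of 0.04, read against the same shares of all genes. Erbb3, a receptor kinase of the family that MIG6 inhibits, fell by 0.58 from 187 ± 10.4 to 125 ± 8.75 CPM (SD, n = 3). It passed the unpaired fit as well (adjusted p 0.0355, limma). Mapk14, which encodes the p38α kinase that MKP-1 switches off, fell by 0.19, the channel regulator gene Nedd4l by 0.17 and Mtor by 0.15. Among the genes that rose were the NF-κB subunit genes Nfkb1 (0.69) and Rela (0.24), whose proteins GILZ restrains, and the JNK2 gene Mapk9 (0.22). Nfkb1 also passed the unpaired fit (adjusted p 0.0111, limma). Cul3, which encodes a ubiquitin ligase scaffold that PLZF binds, rose by 0.13.

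**Figure D5:**
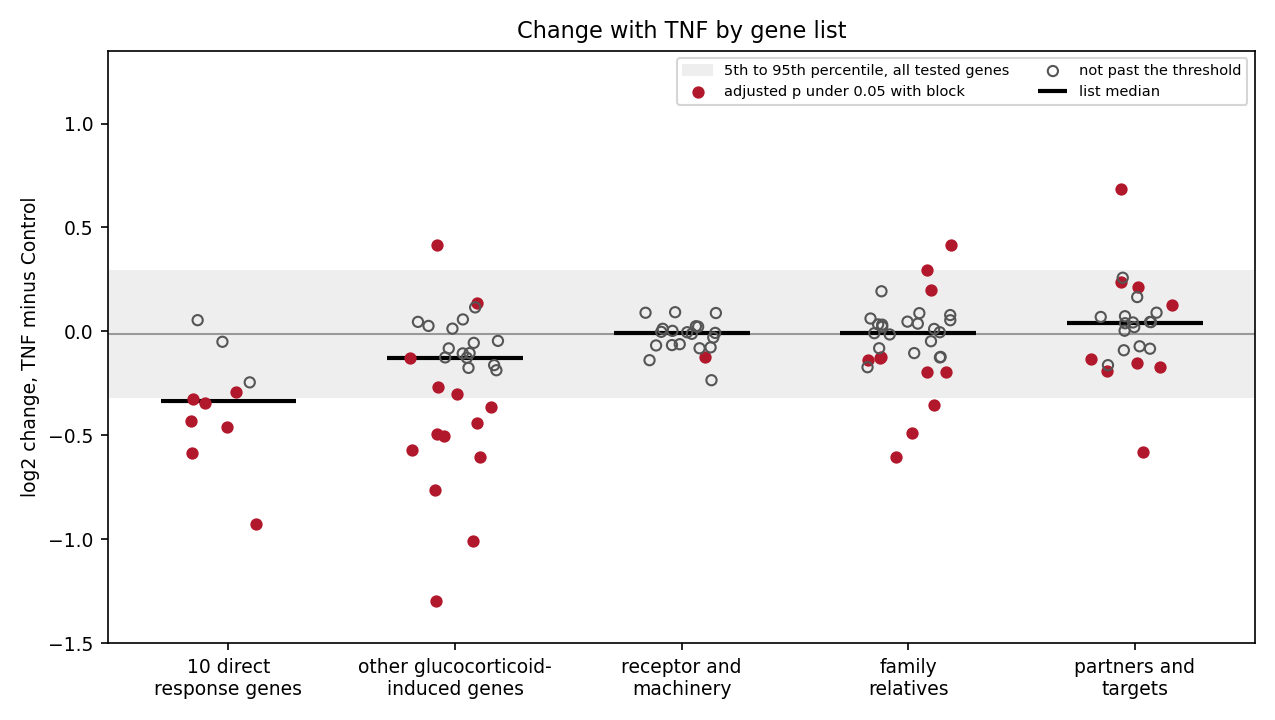
Log2 change with TNF (vertical axis) of each tested gene in 5 lists; filled points are the calls of the blocked fit (adjusted p under 0.05), bars are list medians, and the grey band holds the 5th to 95th percentile of all tested genes. The median of the 10 direct response genes is -0.33, and the other list medians lie between -0.13 and 0.04; the band describes single genes and is no yardstick for a median.

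For the 3 members with the largest unpaired change, the genes most alike over the 6 libraries were sought among 8800 genes with a mean of at least 10 CPM, by Pearson's r of log2(CPM + 1). Zbtb16 was closest to Ahsg (r = 0.999), Naglu (0.996) and Tenm3 (0.994), and Errfi1 to Hp1bp3 (0.995), Gucd1 (0.994) and Arhgef26 (0.993). For Sgk1 the closest were Ppp1r35 (0.971), Dus3l (0.968) and Exph5 (0.967). Pearson's r does not take the size of a change into account. The unpaired log2 change was -0.07 for Ppp1r35, -0.12 for Dus3l and -0.70 for Exph5, against -0.93 for Sgk1. It was -0.60 for Ahsg, -0.18 for Naglu and -0.66 for Tenm3, and -0.14 for Hp1bp3, -0.43 for Gucd1 and -0.56 for Arhgef26. With 6 libraries that share replicate numbers and a treatment, 113 genes exceeded 0.95 for Zbtb16, 118 for Errfi1 and 10 for Sgk1. These values describe these libraries only.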

How the data were processed

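PolyA RNA of 6 libraries was aligned with STAR 2.6.1a to mm10 per the submitters' processing notes. Which program counted reads, and whether by strand, is not given in the sources used here. Per-library values were deposited as log2 CPM with a prior count, per the file headers and values. The authors' deposited table also held, for each gene, its log2 fold change, the p-value with and without adjustment, and a test score (likelihood ratio). Subtracting the common floor (0.0978 CPM) gave whole reads for 100.0% of values (relative tolerance 1e-06). The counted length was that of the whole span, introns included, for 85.0% of 19764 genes, and Klf9 was counted over 25565 of 25686 bases. A gene with 3 reads, the limit that a count of 0 allows, had 0.124 to 0.166 CPM, for counting error only.

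limma 3.58.1 (R 4.3.3) was fitted on log2(CPM + 1) with a trended prior, two-sided, Benjamini-Hochberg adjusted over 12276 genes. A gene needed 15 reads in all and, in 3 libraries, 10 reads at the depth of the median library. The fits were also run on simulated reads. Replicate-number effects and even noise were built into those reads, so that run does not bear on the pairing or the calls here. Groups and replicate numbers came from the titles. Deviations from group means correlated over genes at 0.784, 0.790 and 0.793 for same-numbered libraries, so the numbers were taken as pairs. For others the correlations were -0.473 to -0.336. Deviations cancel out within a group, so negative values there follow from the positive ones and add no separate evidence. Libraries of a group differed by more than sampling noise (chi-square 22.1 to 39.7 per degree of freedom). Members and lists were chosen with earlier results of these data known. Named were all members, up to 4 blocked calls per direction of each pathway list with the largest change, and Nr3c1. Alternatives were voom, other filters, scalings and pseudocounts, and leaving out libraries.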

Additional observations from a re-analysis of the deposited data

How the results depend on the processing

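The unpaired count of 53 genes became 31 without a filter on low reads, with more genes tested, and 9 to 30 when single libraries were left out, with fewer samples. With the replicate block it was 2527, and 2520 by limma-voom with the block. Members past the threshold went from 0 unpaired to 7 with the block and 7 by limma-voom with the block, and other glucocorticoid-induced genes from 0 to 14 and 14. With the block and other settings, 6 or 7 members passed, each lower. Of these, Lpin1 alone was lost, without a filter (adjusted p 0.167, limma) and without replicate 2. The others stayed past the threshold in every blocked setting run. Blocked fits without a replicate have fewer pairs and lean on variance borrowed from other genes, so passing there says little about stability. For Sgk1 the blocked adjusted p was 0.000544 with all replicates and 2.07e-25 without replicate 1 (limma). Hif3a was too low to be tested at a mean of 1 CPM and without replicate 2 or 3.

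Signs changed for Dusp1 and Ddit4, which passed in no setting. Dusp1 was at 0.000266 without Control 3 and 0.0656 without TNF 2 in the unpaired fit (range -0.125 to 0.0656 over left-out libraries), and at 0.0248 with the replicate block without replicate 2 (range -0.101 to 0.0248). Ddit4 was at -0.204, -0.0658 and -0.115 without Control 1, TNF 2 and TNF 3 (range -0.204 to 0.343), and at -0.0233 with the replicate block without replicate 3 (range -0.0233 to 0.100). The causes were not tested. Depth limits Hif3a, with 6 to 40 reads per library.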
